A study of Ovis aries with 30 samples.

Results

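The genes described here encode the proteins of the cytosolic ribosome, measured in the epicardial adipose tissue (EAT) of perinatal sheep. Members were probes, the 60-base sequences on the array, whose gene name began with RPL or RPS and a digit or whose description named a ribosomal protein, and mitochondrial proteins and kinases were left out. This rule used names only and no measured value. It found 32 of the 15008 probes, and these stood for 19 of the 79 cytosolic ribosomal protein genes of mammals, 13 probes of 8 genes for the large subunit and 19 probes of 11 genes for the small subunit. Of the 32 probes, 11 carried both a gene name and a description that met the rule, 4 the gene name alone and 17 the description alone. In the table of reference genes, 23 had the same symbol, 7 were not listed, and 2 were listed under locus names and are called RPL35A and RPS15A here by their descriptions. For 11 genes there was 1 probe and for 8 there were several.

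Total RNA was labelled with 1 dye and hybridised to 30 arrays, 1 per animal, in 4 groups. Control fetuses (n = 8) were taken at term from untreated ewes, and CORT fetuses (n = 6) at term from ewes given cortisol at 1 mg/kg/day. Control lambs (n = 7) were born naturally to untreated ewes and CORT lambs (n = 9) to ewes given 0.5 mg/kg/day, and both were 2 weeks old. Cortisol was given to the ewes from gestational day 115 and not to the offspring, and for the lambs' ewes the study describes a pump that ran overnight only and stopped at delivery. The dose and the age therefore differed together between CORT fetuses and CORT lambs. The study describes a set of twins among the lambs of each treatment, the labels do not mark them, and each lamb entered the tests as an independent animal. Fetuses were on slides 1 and 2 and lambs on slides 3 and 4, with both treatments on each slide.

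A ribosome is built from ribosomal RNA and one copy of most of its proteins, in a small subunit that reads the messenger RNA and a large subunit that joins the amino acids. Messenger RNAs for ribosomal proteins are among the most abundant in most cells. They carry a tract of pyrimidines at the 5′ end, through which the kinase mTOR adjusts their translation to nutrients and growth factors, and cells that grow fast commonly hold more of them. In sheep, fat depots of the newborn are rich in the brown, heat-producing kind of adipocyte and turn to white, lipid-storing fat during early postnatal life.

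Several genes had more than 1 probe, and some results below differ between the probes of a gene, so the probes that these results turn on are shown first, as printed in the files, 5′ to 3′. The 3 probes of RPL10 lie on one target sequence and start at its bases 572, 571 and 589. They share the 42 bases in capitals, and the first and second share 59.

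RPL10 A_70_P029951: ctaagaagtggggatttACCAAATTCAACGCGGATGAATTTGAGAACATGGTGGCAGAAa
RPL10 A_70_P029952: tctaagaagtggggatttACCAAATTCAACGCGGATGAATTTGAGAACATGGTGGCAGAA
RPL10 A_70_P072276: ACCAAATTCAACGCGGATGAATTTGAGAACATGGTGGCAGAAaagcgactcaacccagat

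The 2 probes of RPS27A start at bases 249 and 248 of their target and share the 59 bases in capitals.

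RPS27A A_70_P045151: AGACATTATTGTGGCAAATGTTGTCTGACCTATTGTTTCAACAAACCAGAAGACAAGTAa
RPS27A A_70_P045152: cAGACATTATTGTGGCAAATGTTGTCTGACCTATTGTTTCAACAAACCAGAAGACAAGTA

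The 3 probes of RPL4 start at bases 518, 442 and 212. The first and second belong to one target and the third to another, and no pair shares a stretch of more than 7 bases, so none of their letters are in capitals.

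RPL4 A_70_P001416: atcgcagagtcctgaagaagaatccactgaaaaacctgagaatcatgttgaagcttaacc
RPL4 A_70_P001417: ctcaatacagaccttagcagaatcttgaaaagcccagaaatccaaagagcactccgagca
RPL4 A_70_P001616: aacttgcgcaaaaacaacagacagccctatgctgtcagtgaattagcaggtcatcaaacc

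The level of a probe is its log2 intensity after background correction and quantile normalization over the 30 arrays, and a change is a difference between group means on that scale. Of all probes, 13077 were bright enough to be tested, and these included all 32 ribosomal protein probes. On every array 29 of the 32 were well above background by the scanner's own rule, and none was saturated. As signals, 23 of them were among the 131 brightest probes (the top 1%), 27 lay above the 90th percentile and 4 below the 50th. Brightness also depends on the probe, so these ranks do not compare the genes with one another. Of the 3 dim probes, A_70_P014906 and A_70_P014907 of RPS25 were above background on 8 and 13 arrays.

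As a check of the tissue label, all 5 adipocyte genes with a named probe (FABP4, PPARG, LPL, PLIN1 and LEP) were well above background on every array. Their summed level ranged from 15.42 to 15.99 in Control fetuses and from 15.51 to 16.80 in Control lambs. UCP1, the uncoupling protein of brown fat, was at 13.79 to 15.70 in Control fetuses and at 9.33 to 11.91 in Control lambs, and it fell by 4.28 (SE 0.35, limma adjusted p = 1.62e-07). MB, the myoglobin of striated muscle, was also bright, at 12.74 to 15.25 in Control fetuses and 9.48 to 16.50 in Control lambs for A_70_P029986. The tissue and its marker genes are returned to after the ribosomal proteins.

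The first comparison, of Control lambs with Control fetuses, asked how EAT changed between term and 2 weeks of age without treatment. No slide held both ages, so age and slide cannot be told apart in this comparison. With quantile normalization, 14 ribosomal protein probes of 9 genes were lower in Control lambs and 2 probes of 1 gene, RPL10, were higher at a limma adjusted p under 0.05, whereas scaling each array to its 75th percentile gave 6 lower and 8 higher. Of all 13077 probes, 2879 (22.0%) were lower and 2518 (19.3%) were higher, and with the other scaling 21.9% were lower and 19.8% higher. With slide as a random block 12 ribosomal protein probes were lower and 2 higher (18.1% and 16% of all probes), and the calls lost were the 2 of RPS26. The median change was -0.20 over the 32 probes and -0.01 over all probes tested, and it was -0.16 for the large subunit and -0.23 for the small subunit. These values count several probes of some genes. With the brightest probe alone for each gene, 7 of 19 were lower and 1 higher (22.0% and 19.3% of all probes), with a median change of -0.13. Without a test, 28 of the 32 changes had a negative sign with quantile normalization. This counts the probes of one gene separately, and the share of negative signs over all probes was not computed. The levels of Control lambs and Control fetuses did not overlap for 9 of the 32 probes, against 15.8% of all probes.

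**Figure D1:**
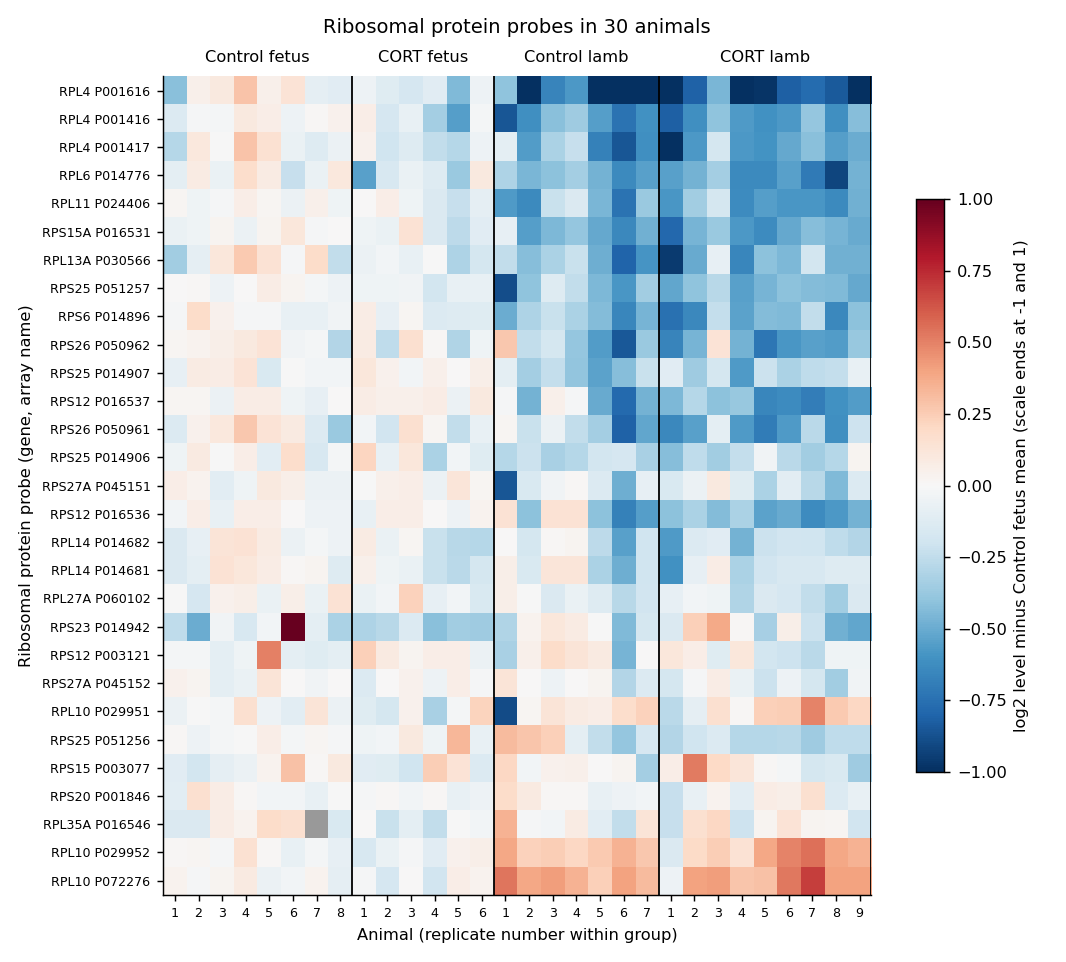
Level of 29 of the ribosomal protein probes (rows, by gene and array name) in each of the 30 animals (columns, by group) as the log2 difference from the Control fetus mean, with quantile normalization and a grey cell where a value is missing. The rows of RPL4, RPL6, RPL11, RPS15A, RPL13A and RPS6 are blue in both lamb groups (with 75th percentile scaling RPL4 and RPL13A alone of these passed the test, and RPL6 changed sign) and the last rows, of RPL10 A_70_P029952 and A_70_P072276, are red in both except in CORT lamb 1.

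Among the large-subunit genes that fell, RPL4, whose protein reaches into the tunnel through which the new peptide leaves, fell at all 3 probes. The brightest, A_70_P001416, had a lowest, median and highest level of 16.48, 16.62 and 16.72 in Control fetuses and of 15.77, 16.02 and 16.27 in Control lambs. Every Control lamb lay below every Control fetus. It fell by 33.6%, a log2 change of -0.59 (SE 0.07, limma adjusted p = 5.57e-06), which was -0.23 with 75th percentile scaling (adjusted p = 0.0327). The changes of the other two were -0.48 (SE 0.11) for A_70_P001417 and -0.86 (SE 0.13) for A_70_P001616, and with 75th percentile scaling they were -0.30 and -0.66. Probes on both targets thus moved the same way. Among the ribosomal protein genes, RPL4 was one of 2 with a bright probe that fell under each of the 4 normalizations tried, the other being RPL13A. How many of all probes did so was not computed.

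RPL13A, which also has a role outside the ribosome in silencing inflammatory messenger RNAs, was at 15.80, 16.20 and 16.41 (lowest, median and highest) in Control fetuses and at 15.35, 15.73 and 15.93 in Control lambs. The groups overlapped slightly, and all 7 Control lambs lay below the Control fetus mean. Its change was -0.44 (SE 0.10, limma adjusted p = 0.00291), and it was -0.28 with 75th percentile scaling (adjusted p = 0.0189).

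RPL6 and RPL11 fell with quantile normalization and did not pass the test with 75th percentile scaling. RPL6 ranged from 17.98 to 18.39 in Control fetuses (median 18.22) and from 17.57 to 17.90 in Control lambs (median 17.76), and the groups did not overlap. Its change of -0.45 (SE 0.07, limma adjusted p = 6.34e-05) became 0.03 (adjusted p = 0.775) with the other scaling. RPL11, which binds the smallest ribosomal RNA, ranged from 17.04 to 17.17 in Control fetuses (median 17.11) and from 16.37 to 16.96 in Control lambs (median 16.65). These ranges were also separate, with a change of -0.45 (SE 0.08, limma adjusted p = 2.51e-04) that became -0.07 (adjusted p = 0.533).

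The other large-subunit genes RPL14, RPL27A and RPL35A did not pass the test. Their brightest probes had changes of -0.16 (SE 0.08) for RPL14, -0.11 (SE 0.06) for RPL27A and 0.02 (SE 0.09) for RPL35A. With cyclic loess both probes of RPL14 were lower, at -0.26 for A_70_P014682 (limma adjusted p = 0.00126) and -0.23 for A_70_P014681 (adjusted p = 0.00501). RPL35A lacked a value on 1 array, that of Control fetus 7, and was not tested with cyclic loess.

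RPL10 was the ribosomal protein gene that rose. Its protein joins the large subunit late in assembly and sits close to the site of peptide bond formation. A_70_P029952 had a lowest, median and highest level of 15.82, 15.90 and 16.05 in Control fetuses and of 16.10, 16.16 and 16.29 in Control lambs, and A_70_P072276 had 15.58, 15.68 and 15.77 against 15.92, 16.07 and 16.21. For both, every Control lamb lay above every Control fetus. The change was 0.28 for A_70_P029952 (SE 0.05, a rise of 21.2%, limma adjusted p = 2.05e-04) and 0.38 for A_70_P072276 (SE 0.05, a rise of 30.1%, adjusted p = 1.71e-05). Both were also higher under the other 3 normalizations, and over every setting tried, leaving out each animal included, the change of A_70_P029952 ranged from 0.24 to 0.43.

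The remaining RPL10 probe did not follow. A_70_P029951 shares 59 of its 60 bases with A_70_P029952, and its change was -0.03 (SE 0.13, limma adjusted p = 0.890). Control lamb 1 was at 15.11 and the other 6 Control lambs at 16.02 to 16.23, and that spot carried no outlier mark from the scanner software. In the same animal A_70_P029952 was at 16.29, the highest of the Control lambs. Without Control lamb 1 the change of A_70_P029951 was 0.12 (SE 0.06, adjusted p = 0.112), a setting chosen after the values were seen.

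Among the small-subunit genes, RPS6, the protein that S6 kinases phosphorylate when mTOR is active, was at 17.26, 17.31 and 17.51 (lowest, median and highest) in Control fetuses and at 16.67, 16.89 and 17.10 in Control lambs. The groups did not overlap, and RPS6 fell by 24.9% (log2 change -0.41, SE 0.06, limma adjusted p = 8.03e-05). RPS15A was at 16.77, 16.84 and 16.96 against 16.20, 16.36 and 16.76. Its lowest Control fetus lay just above its highest Control lamb, and its change was -0.44 (SE 0.07, adjusted p = 9.20e-05). Neither passed the test with 75th percentile scaling, at -0.12 for RPS6 (adjusted p = 0.335) and -0.10 for RPS15A (adjusted p = 0.393).

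RPS26, which lies where the messenger RNA leaves the small subunit, passed the threshold narrowly at both probes. A_70_P050961 ranged from 16.79 to 17.43 in Control fetuses (median 17.22) and from 16.34 to 17.17 in Control lambs (median 16.91), and the groups overlapped. Its change was -0.31 (SE 0.12, limma adjusted p = 0.0451), and A_70_P050962 had -0.33 (SE 0.12, adjusted p = 0.0416). Neither passed with 75th percentile scaling, at -0.13 (adjusted p = 0.442) and -0.18 (adjusted p = 0.282), nor with slide as a random block (adjusted p = 0.0770 and 0.0723).

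RPS12 changed its call with the scaling. A_70_P016537 lay between 18.35 and 18.50 in Control fetuses and between 17.65 and 18.48 in Control lambs. It was lower with quantile normalization (-0.31, SE 0.11, limma adjusted p = 0.0300) and higher with 75th percentile scaling (0.36, adjusted p = 0.0219). The brightest RPS12 probe, A_70_P016536, had -0.23 (SE 0.12, adjusted p = 0.145) with the first and 0.34 (adjusted p = 0.0239) with the second. A_70_P003121, on another target, had -0.05 (SE 0.11) and 0.36 (adjusted p = 0.0172).

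RPS25, a protein used when translation starts at an internal site of a messenger RNA, had 2 bright probes that differed. A_70_P051257 was at 16.86 to 16.99 in Control fetuses and at 16.03 to 16.79 in Control lambs, with no overlap, and fell (-0.44, SE 0.09, limma adjusted p = 7.50e-04). A_70_P051256 was at 16.70 to 16.82 in Control fetuses and at 16.36 to 17.07 in Control lambs, and its change was -0.01 (SE 0.10, adjusted p = 0.95). With 75th percentile scaling the first did not pass (-0.03, adjusted p = 0.870) and the second was higher (0.32, adjusted p = 0.0193). In Control lamb 1 the first probe had its lowest level and the second its highest. Over the 30 animals, deviations from the group mean had r = 0.008 between these probes, which share a stretch of 6 bases. Between A_70_P016536 and A_70_P016537 of RPS12, which share 52 bases, r was 0.95. Pairs that share 59 bases ranged widely. Their r was 0.93 for the RPL14 probes, 0.84 for the RPS26 probes, 0.42 for A_70_P029951 and A_70_P029952 of RPL10 and 0.33 for the RPS27A probes. These correlations share arrays and normalization and are given as descriptions.

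The dim RPS25 probes A_70_P014906 and A_70_P014907 were lower as well (limma adjusted p = 0.00148 and 0.00110), with sizes that differed between background corrections. A_70_P014906 was well above background in 4 of 8 Control fetuses and 0 of 7 Control lambs, with mean levels of 6.63 and 6.38. Both means lie near background, so the size of its change cannot be given. A_70_P014907 was above background in 7 of 8 Control fetuses and 1 of 7 Control lambs, and its change was -0.32 (SE 0.07) here and -2.03 (SE 0.22) with quantile normalization of the scanner's corrected signal.

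RPS27A, made as a fusion of ubiquitin and a ribosomal protein, did not pass the test at either probe. A_70_P045152 was at 17.23 to 17.45 in Control fetuses and 17.03 to 17.45 in Control lambs, with a change of -0.05 (SE 0.06). A_70_P045151, which shares 59 bases with it, had a change of -0.25 (SE 0.11, limma adjusted p = 0.0795). Its level was 16.30 in Control lamb 1 and 16.66 to 17.16 in the other 6, and without that animal the change was -0.15 (SE 0.07, adjusted p = 0.119).

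The small-subunit genes RPS20, RPS15 and RPS23 did not pass the test with quantile normalization, with changes between -0.10 (RPS23, SE 0.21) and 0.02 (RPS20, SE 0.05). RPS20 lay at 17.45 to 17.72 in Control fetuses and 17.49 to 17.74 in Control lambs. Scaled to the 75th percentile, RPS20 was higher (0.25, limma adjusted p = 0.0219). RPS23, near the decoding centre, was at 12.10 in Control fetus 6 and at 10.24 to 10.71 in the other Control fetuses. Its median was 10.60 in Control fetuses and 10.73 in Control lambs, so the medians differed in the other direction from the means.

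**Figure D2:**
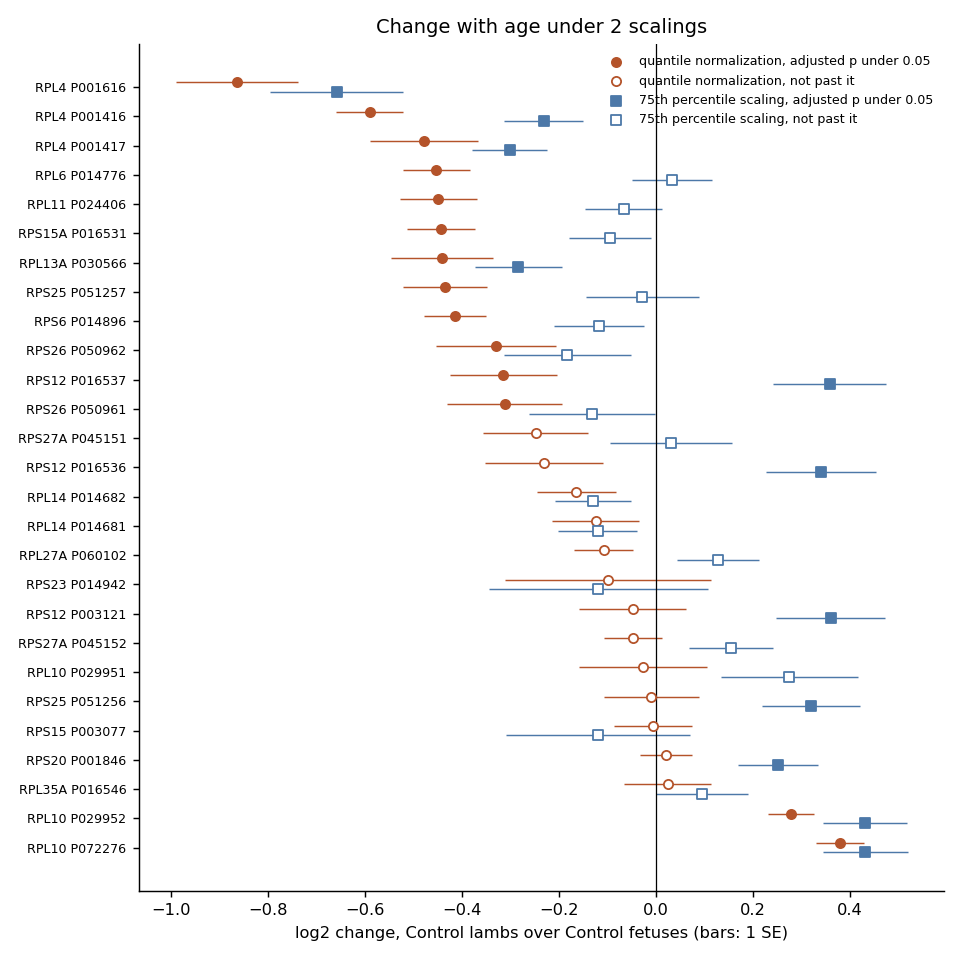
Change of 27 ribosomal protein probes from Control fetuses to Control lambs on the log2 scale (bars, 1 SE) with quantile normalization (circles) and with scaling to the 75th percentile (squares), filled where the limma adjusted p was under 0.05 and with the dim RPS25 probes left out. Most squares lie to the right of their circles, RPS12 A_70_P016537 is filled on opposite sides of 0, and RPL4 and RPL13A stay on the left and RPL10 A_70_P029952 and A_70_P072276 on the right with both.

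The dependence on scaling was examined for the ribosomal protein probes as a group. With 75th percentile scaling of the scanner's corrected signal, their median change with age was 0.001, against -0.03 for all probes. The 8 probes then called higher included those of RPL10, RPS12, RPS25 and RPS20, and the 6 called lower belonged to RPL4, RPL13A and RPS25 (its dim probes). The other normalizations, quantile normalization of the corrected signal and cyclic loess, each gave 2 higher and 14 lower. Of all probes, the first called 2636 higher and 2980 lower of 13077, and the second 2612 higher and 2767 lower of 13010. Under all 4 normalizations, 6 probes of 3 genes were lower and 2 probes of 1 gene were higher. The share of all probes called under all 4 was not computed. These counts therefore do not set the ribosomal protein probes apart from other probes.

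At the bright end, where most ribosomal protein probes lay, the arrays of the ages differed in shape. The 99th percentile of the corrected signal stood above the 75th percentile by 6.39 ± 0.09 (SD, n = 8) in Control fetuses and 6.30 ± 0.09 (n = 7) in Control lambs on the log2 scale. The 99.9th percentile stood above it by 8.30 ± 0.13 (SD, n = 8) in Control fetuses, 8.21 ± 0.09 (n = 6) in CORT fetuses, 8.54 ± 0.21 (n = 7) in Control lambs and 8.59 ± 0.24 (n = 9) in CORT lambs. Quantile normalization sets such distances equal in all arrays and 75th percentile scaling keeps them. The part of this difference in the changes of single genes was not tested.

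The spread between animals was also compared. Among Control fetuses the median SD of the 32 probes was 0.10, below the 0.16 of all probes, and among CORT fetuses it was 0.12 against 0.16. Among Control lambs it was 0.20 against 0.17 and among CORT lambs 0.15 against 0.19. RPS25 A_70_P051256 and A_70_P051257 had the smallest SDs among Control fetuses, 0.03 and 0.04. Control lambs thus spread more widely than Control fetuses at these genes, a difference that was not tested.

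For each animal the median over the 32 probes of the difference from the Control fetus mean summarises the group. It was -0.002 ± 0.05 (SD, n = 8) in Control fetuses, -0.05 ± 0.05 (n = 6) in CORT fetuses, -0.18 ± 0.16 (n = 7) in Control lambs and -0.25 ± 0.08 (n = 9) in CORT lambs. Control lambs ran from -0.47, in Control lamb 6, to -0.005, in Control lamb 1. Control lambs 1, 3 (-0.06) and 4 (-0.08), all of slide 3, lay within the range of the fetuses, which began at -0.12. Control lamb 2 of slide 3 was at -0.17, and the Control lambs of slide 4 were at -0.47 to -0.21. On slide 3 the lambs had a median of -0.13 and on slide 4 of -0.25, while slides 1 and 2 of the fetuses had -0.01 and -0.05. With 75th percentile scaling the members' median stood above the 75th percentile of the array by 6.80 ± 0.09 in Control fetuses, 6.69 ± 0.12 in CORT fetuses, 6.89 ± 0.15 in Control lambs and 6.91 ± 0.27 in CORT lambs, and the ranges of the 4 groups overlapped.

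**Figure D3:**
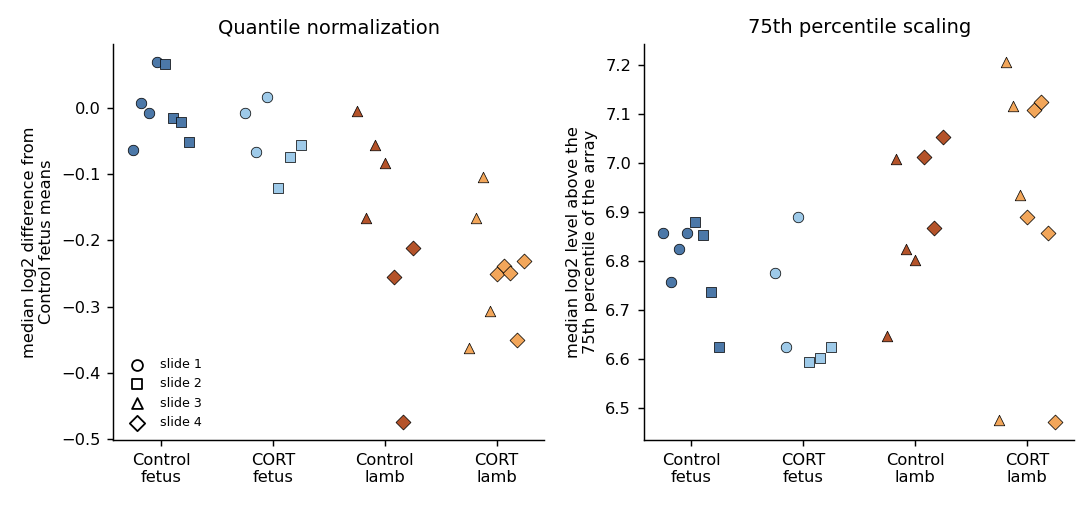
Median level of the ribosomal protein probes in each animal by group, as the log2 difference from the Control fetus means with quantile normalization (left) and as the log2 distance above the array's 75th percentile (right), with the slide shown by the shape of the point. On the left both lamb groups reach lower than the fetuses and slide 4 lies low among Control lambs, and on the right the lambs overlap and exceed the fetuses.

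The genes moved together to a limited degree. Over the 19 genes, each represented by its brightest probe, the 171 pairs had a median r of 0.31 across the 30 arrays for deviations from the group mean with quantile normalization, and 154 were above 0. With 75th percentile scaling the median r was 0.64. All pairs share arrays, labelling and normalization, so these values are descriptions.

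The comparison of CORT lambs with Control lambs asked whether maternal cortisol during late gestation left a difference at 2 weeks after birth. No ribosomal protein probe passed a limma adjusted p of 0.05 in either direction, and of all probes 0 (0%) did. Before adjustment, 1 ribosomal protein probe was lower and 0 were higher at p under 0.05, where 1.54% of all probes were higher and 2.08% lower. Scaled to the 75th percentile, 0 were lower or higher at that level, against 2.24% and 1.14% of all probes. The median change was -0.04 over the 32 probes, -0.06 with 1 probe for each gene and -0.004 over all probes. With probes of one gene counted separately, 24 of the 32 had a negative sign, a share not computed over all probes. The values that the study deposited for the lambs, which hold 29 of the 32 probes, gave a median of -0.07 and also 0 calls in either direction in limma, with 1 probe lower at the unadjusted level.

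The lower probe was A_70_P051256 of RPS25. Its lowest, median and highest levels were 16.36, 16.65 and 17.07 in Control lambs and 16.39, 16.48 and 16.61 in CORT lambs, and none of the 9 CORT lambs reached the Control lamb mean. The change was -0.25 (SE 0.09), with an unadjusted p of 0.0175 and an adjusted p of 1.00 in limma (exact two-sided permutation p = 0.0191). On slide 3 the 4 Control lambs were at 16.65 to 17.07 and the 4 CORT lambs at 16.46 to 16.61, a difference of -0.41 (SE 0.11). On slide 4 the 3 Control lambs were at 16.36 to 16.58 and the 5 CORT lambs at 16.39 to 16.50, a difference of -0.02 (SE 0.08). The contrast was thus seen among the animals of slide 3, in the higher levels of its Control lambs. The other bright RPS25 probe, A_70_P051257, had a change of -0.01 (SE 0.09).

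Next in order of p were RPS12 at A_70_P016536 (-0.23, SE 0.12, exact two-sided permutation p = 0.0952), RPL6 (-0.13, SE 0.08) and RPS26 at A_70_P050961 (-0.16, SE 0.12). RPS12 ranged from 17.88 to 18.70 in Control lambs and from 17.93 to 18.24 in CORT lambs. It differed by -0.37 (SE 0.13) on slide 3 and by 0.005 (SE 0.09) on slide 4. Of the genes with a positive sign, RPL4 (0.03, SE 0.08), RPS15 (0.03, SE 0.11) and RPL10 (0.01, SE 0.08) were among those with the smallest p at their brightest probe, and all 3 were within 1 SE of 0. Over the 32 probes the median change was -0.12 within slide 3, with 4 lower at an unadjusted p under 0.05 (4.93% of all probes), and 0.04 within slide 4, with 1 higher (3.17% of all probes). The within-slide comparisons were chosen after the data were seen. With array weights 5 probes were lower at an unadjusted p under 0.05 (3.23% of all probes), and 0 passed the adjusted threshold.

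**Figure D4:**
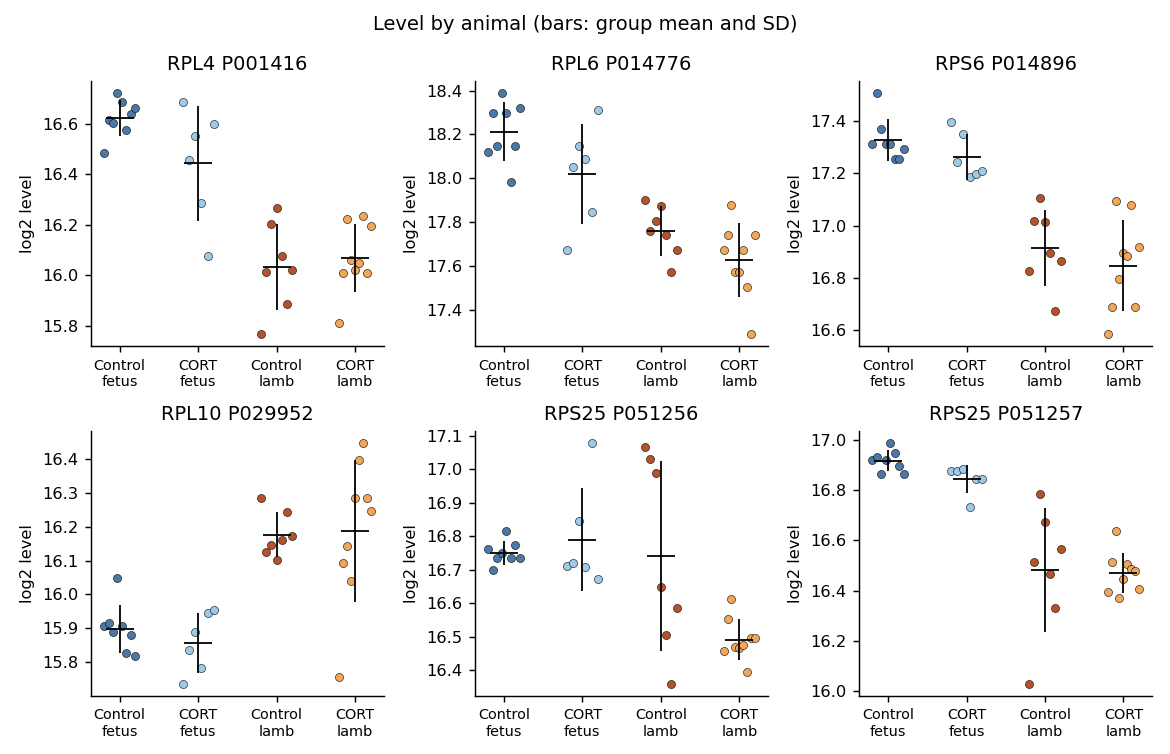
Log2 level of 6 ribosomal protein probes in each animal of the 4 groups, with quantile normalization (bars, mean and SD). RPL4, RPL6, RPS6 and RPS25 A_70_P051257 are lower in lambs and RPL10 is higher with this normalization (with 75th percentile scaling RPL6, RPS6 and RPS25 A_70_P051257 are not called), and in RPS25 A_70_P051256 the Control lambs spread from 16.36 to 17.07 around a tight group of CORT lambs.

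The comparison of CORT fetuses with Control fetuses asked the same at term, at the higher maternal dose. Again 0 ribosomal protein probes passed a limma adjusted p of 0.05 in either direction (0% of all probes). Before adjustment, 1 was lower and 0 were higher at p under 0.05, where 1.22% of all probes were higher and 1.14% lower. At that level 0 were lower or higher with 75th percentile scaling, against 0.948% and 1.27% of all probes. The median change was -0.06 over the 32 probes, -0.07 with 1 probe for each gene and -0.01 over all probes. With quantile normalization and probes of one gene counted separately, 26 of the 32 had a negative sign, a share not computed over all probes. With cyclic loess the median was 0.07.

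The lower probe was A_70_P001416 of RPL4, at 16.48, 16.62 and 16.72 (lowest, median and highest) in Control fetuses and at 16.07, 16.50 and 16.69 in CORT fetuses. The groups overlapped, and 3 of the 6 CORT fetuses lay below the lowest Control fetus. Its change was -0.18 (SE 0.08), with an unadjusted p of 0.0485 and an adjusted p of 1.00 in limma (exact two-sided permutation p = 0.0363). It was -0.04 (SE 0.09) on slide 1, with 3 CORT and 4 Control fetuses, and -0.32 (SE 0.12) on slide 2, with the same numbers. The other RPL4 probes had changes of -0.14 (SE 0.08) and -0.16 (SE 0.10).

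RPL6 had a change of -0.19 (SE 0.09, exact two-sided permutation p = 0.0669) and RPL14 of -0.13 (SE 0.07). RPL6 ranged from 17.98 to 18.39 in Control fetuses and from 17.67 to 18.31 in CORT fetuses. RPS25 at A_70_P051256 (0.04, SE 0.06) and RPS12 at A_70_P016536 (0.01, SE 0.04) had the smallest p among the genes with a positive sign. By an exact two-sided permutation test A_70_P051257 of RPS25, with a change of -0.07 (SE 0.04), had p = 0.00633, and its limma unadjusted p was 0.0950. The permutation p was not adjusted for the 32 probes tested. At this probe CORT fetus 4 stood apart (16.734, the other CORT fetuses from 16.844). Within slide 1 the median over the 32 probes was -0.02 and within slide 2 it was -0.10, where 5 probes were lower at an unadjusted p under 0.05 (3.33% of all probes).

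**Figure D5:**
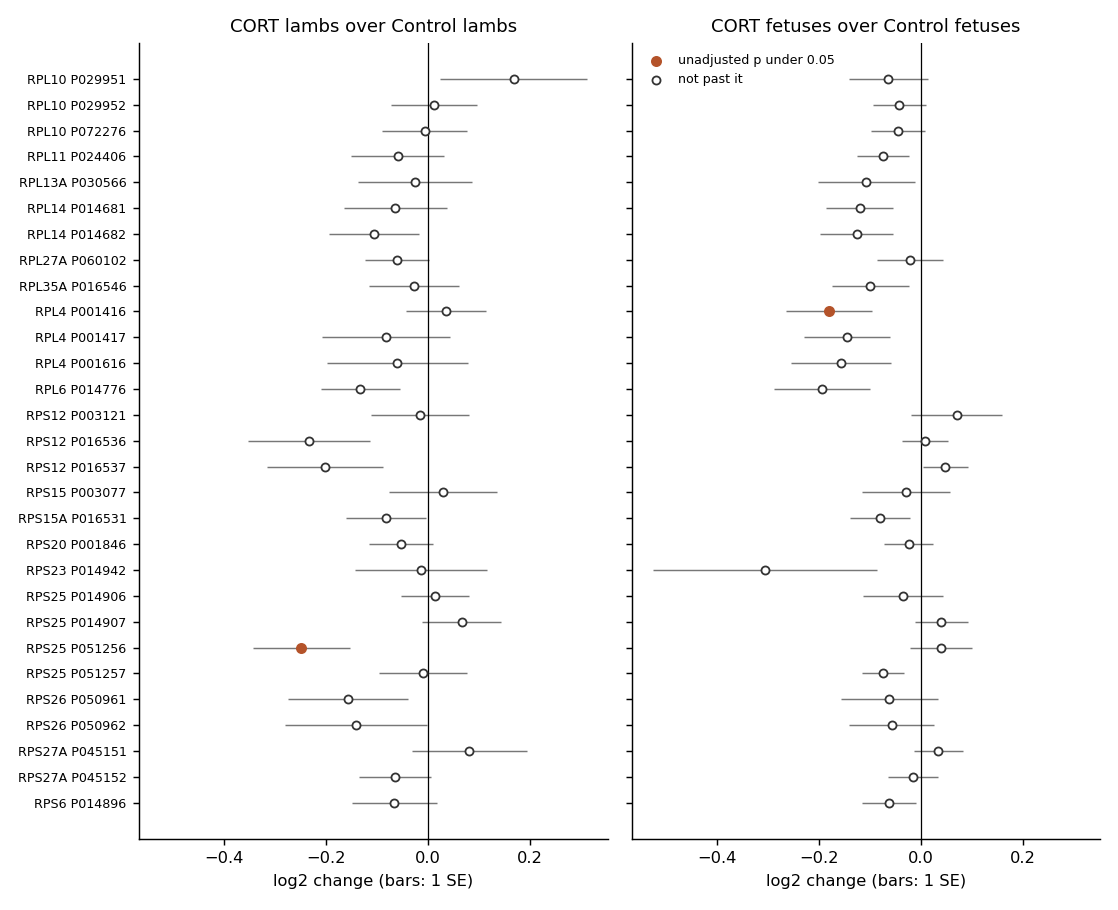
Log2 change of 29 of the ribosomal protein probes in CORT lambs over Control lambs (left) and in CORT fetuses over Control fetuses (right), with quantile normalization (bars, 1 SE), filled where the unadjusted limma p was under 0.05. One probe is filled on each side, RPS25 A_70_P051256 in lambs and RPL4 A_70_P001416 in fetuses, and no probe passed the adjusted threshold.

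The difference between the cortisol effects, lambs less fetuses, compared exposures of unlike dose as well as age. In limma 0 ribosomal protein probes passed an adjusted p of 0.05 in either direction (0% of all probes), and before adjustment 1 was lower and 0 were higher at p under 0.05, where 1.02% of all probes were higher and 1.08% lower. The lower one was RPS25 A_70_P051256, with a difference of -0.29 (SE 0.12, unadjusted p = 0.0196). RPS12 at A_70_P016536 had -0.24 (SE 0.14), RPS26 at A_70_P050961 had -0.10 (SE 0.16) and RPS27A at A_70_P045152 had -0.05 (SE 0.09). In the other direction were RPL4 at A_70_P001416 (0.21, SE 0.11, unadjusted p = 0.0712) and RPS23 (0.29, SE 0.26). Leaving out each animal gave 0.096 to 0.36 for RPS23. The median difference was 0.04 over the 32 probes and 0.01 over all.

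A further 8 probes of 6 ribosomal protein genes carried no such name in the files and were named through the reference table. With age, 2 of the 8 were lower and 0 higher with quantile normalization, against 22.0% lower and 19.3% higher of all probes. RPS2, at the entry of the messenger RNA channel, was at 17.55, 17.73 and 17.90 (lowest, median and highest) in Control fetuses and at 17.29, 17.37 and 17.61 in Control lambs (-0.31, SE 0.06, limma adjusted p = 6.32e-04). RPL34 was lower at A_70_P026771 (-0.18, SE 0.07, adjusted p = 0.0480) and did not pass at A_70_P026772 (-0.15, SE 0.07). RPSA, the laminin receptor precursor of the small subunit, had 0.02 (SE 0.10) and RPL32 had 0.16 (SE 0.07). The remaining RPS26 probe had -0.17 (SE 0.11). Scaled to the 75th percentile, neither RPS2 (-0.06) nor RPL34 A_70_P026771 (0.16) passed, and RPL32 was higher. With that scaling 2 of the 5 large-subunit probes were higher and 0 lower, and 0 of the 3 small-subunit probes passed. Of all probes, 19.8% were then higher and 21.9% lower. RPLP0, RPL3, RPL3L and FAU had no probe that could be named.

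Of the translation factors, 5 of 48 listed genes had 9 tested probes, and with age 3 probes were higher and 4 lower. EEF1A1, which delivers aminoacyl-tRNA to the ribosome and carries the same 5′ tract as the ribosomal proteins, fell at A_70_P024176 (-0.70, SE 0.10, limma adjusted p = 4.61e-05, and -0.40 with 75th percentile scaling) and rose at A_70_P012927 (0.42, SE 0.13, adjusted p = 0.0189) and A_70_P012926 (0.66, SE 0.14, adjusted p = 0.00122). The probes named for one gene therefore moved in opposite directions, and did so under all 4 normalizations. EEF1D, which recharges EEF1A1 with GTP, rose by 0.68 (SE 0.10).

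The other genes with a 5′ pyrimidine tract were measured by 8 probes of 5 genes, EEF1A1 and EEF1D included, of which 3 were higher and 2 lower. RACK1, a scaffold protein on the small subunit, was at 16.91, 16.99 and 17.16 in Control fetuses and at 16.31, 16.42 and 16.49 in Control lambs. Its change was -0.62 (SE 0.05, limma adjusted p = 1.42e-07), and -0.22 with 75th percentile scaling (adjusted p = 0.0528). TPT1, a tumour protein under translational control, had 0.04 (SE 0.08) and was higher with 75th percentile scaling (0.38, adjusted p = 0.00145). The single ribosome biogenesis gene, DKC1 of the pseudouridine-forming complex, was lower (-0.72, SE 0.12), as was the single mitochondrial ribosomal protein gene, MRPL32 (-0.45).

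Of growth signalling to the ribosome, 6 probes of 5 genes were measured, and 2 were higher and 0 lower. One of these was IGF1 (1.19, limma adjusted p = 3.46e-04). MYC, which drives transcription of ribosomal genes, had -0.35 (SE 0.22) and -0.46 (SE 0.22) and did not pass. EEF2, NPM1, MTOR and RPS6KB1 had no probe that could be named. In CORT lambs, in CORT fetuses and in the difference between them, 0 of the 21 probes of these lists passed the adjusted threshold in limma, and before adjustment 1, 0 and 1 were higher and 0 lower at p under 0.05.

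Markers of cell types moved with age beside the ribosomal proteins. Of 8 adipocyte probes, 4 were higher and 0 lower in Control lambs, among them LPL at 1.72 (SE 0.18) and 1.70 (SE 0.19). PPARG, the master regulator of adipocytes, had -0.46 (SE 0.18, limma adjusted p = 0.0552), with all 7 Control lambs below the Control fetus mean. Both brown adipocyte probes, of UCP1 and PPARGC1A, were lower, and their summed level was 13.83 to 15.73 in Control fetuses and 9.87 to 11.98 in Control lambs. Of 7 endothelial probes 4 were lower and 0 higher, both macrophage probes, of CD14, were higher, and of 4 erythroid probes 1 was lower. Scaled to the 75th percentile, 1 macrophage and 2 erythroid probes passed, in these directions, and the counts for the other markers did not change. Of the 4 striated muscle, 5 lymphocyte and thymus and 3 proliferation probes, 0 passed in either direction in limma, and before adjustment 1 lymphocyte probe was lower at p under 0.05. At that level 1 adipocyte probe (PPARG) and 2 erythroid probes were lower. The summed levels of Control fetuses and Control lambs overlapped for endothelial (12.65 to 13.01 against 12.06 to 12.97), macrophage (8.64 to 8.84 against 8.72 to 9.22), erythroid (12.66 to 16.51 against 12.48 to 17.08), muscle (13.88 to 18.38 against 10.74 to 17.55), lymphocyte (8.98 to 10.63 against 9.15 to 10.01) and proliferation markers (10.27 to 10.89 against 9.69 to 10.61). The part of these cell types in the changes of the ribosomal protein genes was not tested, and in bulk tissue fewer cells of a type and less RNA per cell cannot be told apart. In CORT lambs and in CORT fetuses 0 of the 35 marker probes passed the adjusted threshold in limma, and before adjustment 2 were higher in CORT lambs and 0 in CORT fetuses, with 0 lower.

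Across the arrays, the median foreground intensity was 132 to 240 and the median local background 34 to 46, and 70.4% to 83.5% of spots were well above background. The foreground differed between the ages, at 172 to 240 in Control fetuses and 150 to 188 in Control lambs. It was 200 to 233 in CORT fetuses and 132 to 235 in CORT lambs. The part of this difference in the changes with age was not tested. Arrays of one group correlated at 0.957 to 0.993. The number of arrays limits the precision of each value.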

How the data were processed

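For each of 15744 spots, per the file headers, mean foreground and median local background intensity had been extracted with Agilent Feature Extraction 10.1.1.1, which also gave a corrected intensity. The authors also deposited log2 values, background-corrected and quantile normalized in limma, from which the 16 lamb columns served as an alternative and the 14 fetal columns were not used.

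The normexp method (offset 50) of limma 3.58.1 in R 4.3.3 removed background, outlier spots by the scanner's marks were left out, and the 30 arrays were quantile normalized together. A probe was tested when it was at least 10% brighter than the 95th percentile of 77 negative control spots on at least 6 arrays. Each comparison was fitted with lmFit and eBayes, two-sided, on the compared groups alone, with Benjamini-Hochberg adjustment over all 13077 probes, and single probes also by exact two-sided permutation. The fits were tested on simulated data. The members and gene lists were chosen with earlier results of these data known. The brightest probe stands for a gene. Named were up to 8 genes in each direction past the threshold with age, by size of change, the 4 with the smallest p in each direction in the other comparisons, a fixed list of ribosomal protein and translation genes where measured, and probes whose value rests on 1 animal. Some genes that this rule named entered the fits and counts but are not reported here. The titles number the animals within groups, and nothing in the labels ties numbers to shared ewes, so p-values measure the spread between these samples. Alternatives were the corrected signal with quantile normalization or 75th percentile scaling, cyclic loess, no filter on dim probes, all 30 arrays in 1 fit, array weights, slide and replicate blocks, 1 probe for each gene, and leaving out each animal. Comparisons within each slide were added after seeing the data.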

Additional observations from a re-analysis of the deposited data

Results flagged for a closer look

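In each of 116 sets of values, 1 ribosomal protein probe in 1 group, the highest and lowest animal was compared with the rest of its group. In 13 sets 1 animal stood apart from the others by more than the 95% critical value of Dixon's test, which chance gives in about 1 of 20 sets.

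Control lamb 1 was low at RPL10 A_70_P029951 (15.111, the others from 16.021 to 16.233). Control lamb 7 was low at RPS15 (6.8626, the others from 7.1766). CORT lamb 1 was low at RPL4 A_70_P001417 (15.02, the others from 15.583) and CORT lamb 3 was high at RPS26 A_70_P050962 (16.974, the others up to 16.458).

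Among Control fetuses, animal 6 was high at RPS23 (12.102, the others up to 10.705), animal 5 high at RPS12 A_70_P003121 (18.194, the others up to 17.673), animal 2 high at RPS6 (17.507, the others up to 17.369), animal 4 high at RPL10 A_70_P029952 (16.049, the others up to 15.916) and animal 8 low at RPS26 A_70_P050962 (16.541, the others from 16.805).

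Among CORT fetuses, animal 5 was low at RPL4 A_70_P001616 (12.851, the others from 13.123) and at RPS12 A_70_P016537 (18.372, the others from 18.483), animal 4 was low at RPS25 A_70_P051257 (16.734, the others from 16.844) and animal 3 was high at RPL27A (17.93, the others up to 17.673).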

How the results depend on the processing

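Of 119 counts and medians recomputed under alternatives that kept all animals of the comparison or took them by slide, 115 stayed within the spread or within 1.5 times the main count and 4 moved. With 75th percentile scaling, Control lambs against Control fetuses gave 8 probes higher, 6 lower (19.8% and 21.9% of all probes) and a median of 0.0012. With cyclic loess the median in CORT fetuses was 0.066. Those that stayed include every count of 0 in the cortisol comparisons and medians that changed sign within the spread between animals. The lamb median was -0.041, and 0.040 within slide 4. The median difference between the cortisol effects was 0.042, and -0.041 with cyclic loess. The tally therefore does not speak to the sign of these medians. Leaving out each animal gave 2 higher and 11 to 15 lower with age and a median from -0.22 to -0.14. Of all 13077 probes, 2368 to 2602 were then higher and 2640 to 2930 lower. For the cortisol comparisons it gave medians from -0.085 to -0.0088 for CORT lambs, -0.083 to -0.039 for CORT fetuses and 0.0023 to 0.054 for the difference between them, with 0 ribosomal protein probes called. The call of RPS26 with age was lost in 13 of 23 alternatives.

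For single genes the sign turned in lambs for RPL4 (-0.0050 with quantile normalization of the corrected signal, -0.018 with array weights, -0.036 within slide 3), RPS15 (-0.013 with cyclic loess, -0.036 within slide 4), RPL10 (-0.013 with slide as a block, -0.156 within slide 3), RPS12 (0.0050 within slide 4) and RPS26 (0.084 within slide 4). It turned in fetuses for RPS25 (-0.017 with 75th percentile scaling), and for RPL6 (0.132) and RPL14 (0.0051), both with cyclic loess. With age it turned for RPL6 (0.033 with 75th percentile scaling), and in the difference between the cortisol effects for RPS26 (0.059) and RPS27A (0.086), both with 75th percentile scaling. None of these cortisol values passed the test in any direction. Without 1 animal the lamb values ranged from -0.0097 to 0.073 for RPL4, -0.034 to 0.076 for RPS15 and -0.021 to 0.065 for RPL10, and the fetal values from -0.019 to 0.063 for RPS25 and -0.0039 to 0.024 for RPS12. The cause of these turns was not tested.

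The groups share replicate numbers, and nothing in the labels ties these numbers to shared ewes, so they were not taken as pairs. The deviations of same-numbered animals correlated between -0.23 and 0.41. Animals of different numbers were not compared, so this range cannot decide whether the numbers mark pairs. With the replicate number as a block, 2 probes were higher and 13 lower with age (median -0.20), against 2193 higher and 2476 lower of all 13077 probes. With that block 0 ribosomal protein probes passed in lambs (median -0.028), in fetuses (median -0.076) and in the difference (median 0.043). With this replicate block the lamb change of RPL10 was -0.011 and the fetal change of RPS12 was -0.0096. With slide as a random block 2 were higher and 12 lower with age (16% and 18.1% of all probes). Signal near background limits 3 of the 32 probes.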
